A study of Mus musculus with 9 samples.

Results

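AP-1 is a family of paired DNA-binding proteins, and BATF is a relative that pairs with the same partners. Of the 10 gene symbols that define the set here (Fos, Fosb, Fosl1, Fosl2, Jun, Junb, Jund, Batf, Batf3 and Maff), 7 are rows of the deposited sample table of 2889 genes: Fos, Fosb, Fosl2, Jun, Junb, Batf and Maff. Fosl1, Jund and Batf3 were not analysed here. Splenic CD3+ T cells of wild-type C57BL/6 mice, purified by removing the other cell types, were held for 4 h in adipocyte conditioned medium, in stromal cell conditioned medium or in unconditioned RPMI. Each of 3 mice gave 1 sample per medium, so there were 9 samples and 3 per medium. The culture of the conditioning cells, the age of the mice and any stimulus of the T cell receptor were not found in the labels. The RNA-seq libraries came from SMART-seq v4 cDNA, with priming at poly(A) tails. Values are read counts that the authors divided by 1 size factor per sample, called normalised counts below.

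FOS proteins bind DNA only in a pair with a JUN protein, whereas JUN proteins can also pair with each other, and the pair recognises AP-1 elements in many inducible genes. Fos, Fosb, Jun and Junb are immediate early genes, copied within minutes of a signal without new protein, and in T cells their products work beside NFAT at cytokine genes such as Il2. BATF pairs with JUN proteins, lacks an activating domain of its own, and binds composite elements together with IRF4 or IRF8. In mice it is needed for interleukin 17 producing and follicular helper T cells.

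The windows of 250 bases upstream of each RefSeq start (build GRCm38.p6) were read for 7 of 7 members, in 9 windows because Maff has 3 starts. A set of 5 is printed, as examples of FOS, JUN and BATF gene windows with and without the matches marked below. The windows of Fosb and Maff are not printed. Capitals mark matches to the kappaB element, where NF-kB proteins bind, and to TGACG, the string at the core of the cyclic AMP response element TGACGTCA.
Fos: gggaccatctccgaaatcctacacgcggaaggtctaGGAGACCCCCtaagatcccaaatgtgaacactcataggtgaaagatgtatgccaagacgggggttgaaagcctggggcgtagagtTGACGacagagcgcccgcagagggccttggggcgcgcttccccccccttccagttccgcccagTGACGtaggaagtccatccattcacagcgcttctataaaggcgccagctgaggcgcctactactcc
Fosl2: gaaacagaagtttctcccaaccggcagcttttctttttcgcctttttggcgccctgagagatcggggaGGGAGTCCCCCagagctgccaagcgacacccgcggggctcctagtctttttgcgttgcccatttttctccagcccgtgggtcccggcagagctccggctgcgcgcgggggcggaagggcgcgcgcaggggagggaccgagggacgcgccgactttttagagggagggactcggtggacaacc
Jun: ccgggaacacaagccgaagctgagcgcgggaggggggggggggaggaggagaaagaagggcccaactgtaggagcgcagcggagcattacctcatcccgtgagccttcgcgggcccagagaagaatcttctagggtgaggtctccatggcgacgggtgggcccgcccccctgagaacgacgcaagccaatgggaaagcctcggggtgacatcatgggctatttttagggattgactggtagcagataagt
Junb: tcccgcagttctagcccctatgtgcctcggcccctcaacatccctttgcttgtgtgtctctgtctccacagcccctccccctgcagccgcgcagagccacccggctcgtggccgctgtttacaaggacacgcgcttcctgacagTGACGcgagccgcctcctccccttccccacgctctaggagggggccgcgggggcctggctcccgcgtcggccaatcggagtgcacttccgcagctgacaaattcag
Batf: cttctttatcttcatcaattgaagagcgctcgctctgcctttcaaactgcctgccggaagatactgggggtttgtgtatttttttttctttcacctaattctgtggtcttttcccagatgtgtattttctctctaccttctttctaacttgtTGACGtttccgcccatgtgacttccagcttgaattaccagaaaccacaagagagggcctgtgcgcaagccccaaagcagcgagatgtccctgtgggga
The Fos window is chr12:85473640-85473889 on the + strand and the Fosl2 window chr5:32136222-32136471 on the + strand. The Jun window is chr4:95052223-95052472 on the - strand, the Junb window chr8:84978749-84978998 on the - strand and the Batf window chr12:85686470-85686719 on the + strand. Both strands were searched, and a match is a description of letters and not a bound site. G and C made up 46.4% (Batf) to 68.8% (Fosb) of the letters of a member window. The shares over all windows were not matched for this. A kappaB match lay in 4 of the 9 member windows, those of Fos, Fosb, Fosl2 and 1 Maff start, against 3.9% of 32851 windows of the same length. TGACG, chosen for the search after the windows had been read, lay in 6 of the 9, those of Fos, Fosb, Junb, Batf and 2 Maff starts, against 17.8% of all windows. The full TGACGTCA lay in 1 Maff window, 29 bases before the start, where its TGACG is the same stretch, against 1.55% of windows. The GC box GGGCGG lay in 7 of the 9 and in 32.7% of all windows. No member window held the AP-1 element TGANTCA (6.75% of windows), the STAT element TTCNNNGAA (7.02%) or the CArG box (1.47%). Elements beyond the 250 bases, and variants with other letters, were not searched, so the genes may still have such elements.

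Each of the 7 genes was higher in adipocyte medium than in both other media, and the values by sample follow in the order of the proteins' roles. The FOS group comes first. Fos (ENSMUSG00000021250), the founding member, had 19740, 11389 and 21542 normalised counts in adipocyte medium (mice 1, 2 and 3), 5297, 5730 and 4410 in stromal medium and 4985, 4086 and 4162 in unconditioned medium. Every adipocyte value was above every other value, and the stromal and unconditioned values overlapped. Fos averaged 17557 ± 5417 in adipocyte medium against 4411 ± 498 in unconditioned medium (SD, n = 3 each), and the log2 fold change was 1.95 (limma, SE 0.20, adjusted p = 8.45e-07). In bulk RNA such as this, fewer cells of a type and less RNA per cell cannot be told apart.

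Fosb (ENSMUSG00000003545), a paralog of Fos, was the lowest of the FOS group. It had 1924, 1139 and 1891 normalised counts in adipocyte medium, 505, 685 and 432 in stromal medium and 587, 439 and 482 in unconditioned medium. Again the adipocyte values stood apart and the other media overlapped. The log2 fold change of adipocyte over unconditioned medium was 1.68 (SE 0.21, limma adjusted p = 6.74e-06).

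Fosl2 (ENSMUSG00000029135) encodes FRA-2, a FOS relative without the strong activating domain of FOS. It had 23592, 15411 and 26440 normalised counts in adipocyte medium, 3514, 5531 and 3292 in stromal medium and 5558, 4673 and 4321 in unconditioned medium. In 2 of the 3 mice the stromal sample was below the unconditioned one, and those groups overlapped. Fosl2 averaged 21814 ± 5726 in adipocyte and 4850 ± 637 in unconditioned medium (SD, n = 3 each), with a log2 fold change at 2.14 (limma, SE 0.21, adjusted p = 7.26e-07).

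The JUN genes had the 2 largest changes of the 7, with 95% intervals that overlap that of Fosl2. Jun (ENSMUSG00000052684), which encodes the classic partner of FOS, had 18757, 11827 and 20656 normalised counts in adipocyte medium, 4003, 3682 and 3593 in stromal medium and 2879, 2881 and 2751 in unconditioned medium. The 3 media did not overlap, and the order was adipocyte, stromal, unconditioned in each mouse. Jun averaged 17080.0 ± 4647 in adipocyte and 2837 ± 74.9 in unconditioned medium (SD, n = 3 each), which is 5.85-fold on the log2(value + 1) scale (log2 fold change 2.55, SE 0.16, limma adjusted p = 3.06e-08).

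Junb (ENSMUSG00000052837), whose product supports Il4 transcription in mouse type 2 helper cells, was the most abundant member. It had 114571, 81464 and 111503 normalised counts in adipocyte medium, 28528, 35319 and 28209 in stromal medium and 19798, 19779 and 19617 in unconditioned medium. The media did not overlap here either, and the unconditioned values were nearly equal, with a coefficient of variation of 0.503%. Junb averaged 102513 ± 18293 in adipocyte and 19731 ± 99.3 in unconditioned medium (SD, n = 3 each), and the log2 fold change was 2.36 (limma, SE 0.13, adjusted p = 1.67e-08). The libraries do not keep strand. In GENCODE M21 the antisense gene Junos shares 232 exon bases with Jun, and Prdx2, on the other strand, shares 173 with Junb, and reads in those stretches cannot be told apart.

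Batf (ENSMUSG00000034266) had 6965, 5116 and 5902 normalised counts in adipocyte medium, 2395, 2299 and 2240 in stromal medium and 1957, 2049 and 1807 in unconditioned medium. No media overlapped, although the stromal and unconditioned values lay close together. Batf averaged 5994 ± 928 in adipocyte and 1938 ± 122 in unconditioned medium (SD, n = 3 each), and the log2 fold change was 1.62 (limma, SE 0.10, adjusted p = 3.54e-08). Its fold, 3.07, was the smallest of the 7, close to the 3.22 of Fosb.

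Maff (ENSMUSG00000042622) encodes a small MAF protein, which has no activating domain and pairs with factors such as NRF2. It had 2267, 1543 and 1833 normalised counts in adipocyte medium, 569, 584 and 544 in stromal medium and 540, 503 and 541 in unconditioned medium. The log2 fold change of adipocyte over unconditioned medium was 1.81 (SE 0.13, limma adjusted p = 6.53e-08).

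**Figure D1:**
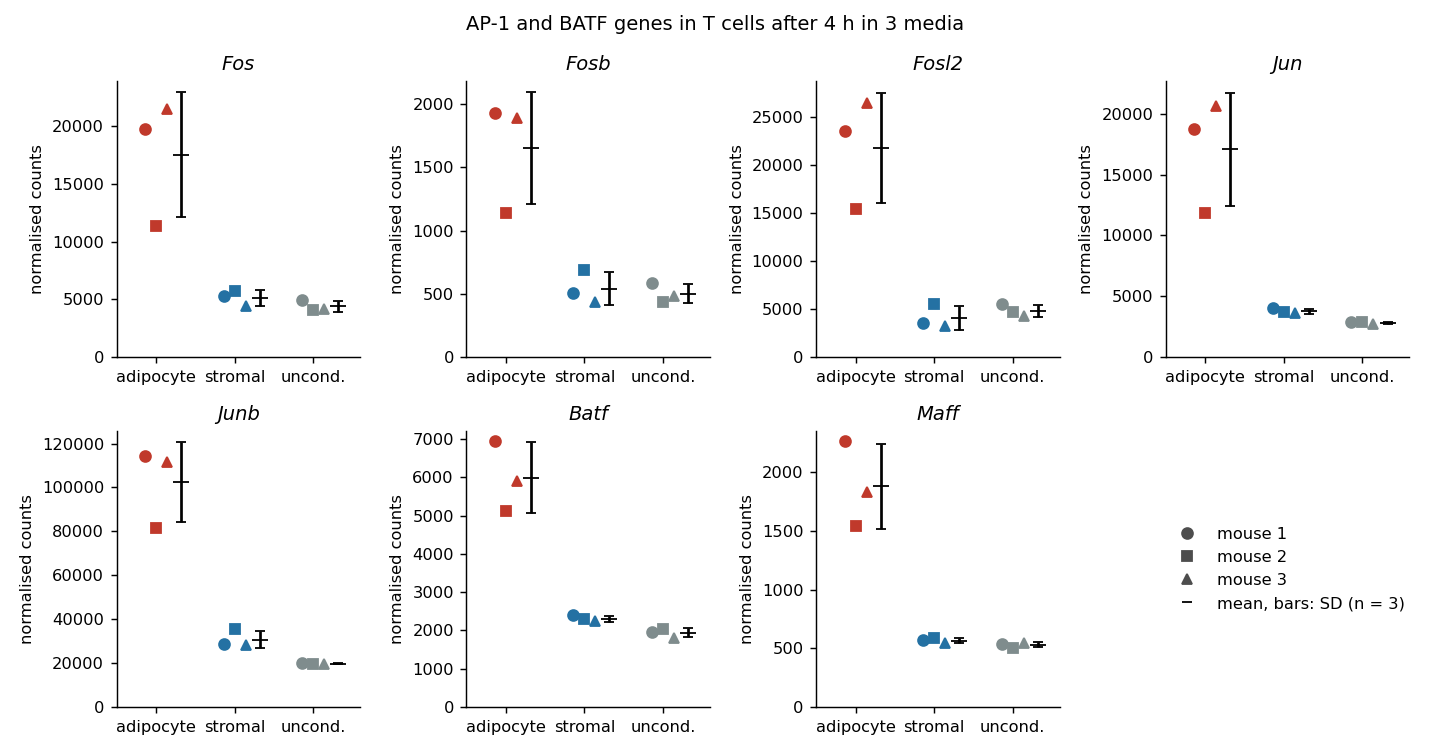
Normalised counts (y axis, from 0) of the 7 genes in adipocyte, stromal and unconditioned medium. Each symbol is 1 mouse and the bar is the mean with its SD (n = 3); in each panel the 3 adipocyte samples are above all others, and mouse 2 (square) is the lowest of them.

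All 7 members were thus called higher in adipocyte than in unconditioned medium, with a median log2 fold change of 1.95. In the same comparison 33.8% of the 2868 tested genes were called higher, 63.4% lower and 97.2% in either direction (limma, Benjamini-Hochberg adjusted p under 0.05). The median of all tested genes was -1.03. All 7 also had the 3 adipocyte values above the 3 unconditioned ones, as had 33.6% of tested genes. The call is not independent evidence. The sample table holds only genes that the authors had listed as changed on these samples, and all 7 members are in the authors' deposited table for adipocyte medium and in the authors' cluster 1 of 920 genes. In the authors' deposited table the log2 fold changes run from 1.62 for Batf to 2.56 for Jun. By log2 fold change the members ranked between Batf, with 89.6% of tested genes below it, and Jun, with 95.6% below it, a place that follows in part from the 63.4% of tested genes called lower.

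Markers of several cell types moved with the medium. The sample table holds 5 of 20 T cell markers listed, Cd3e, Cd3g, Cd8a, Cd8b1 and Bcl11b. Their sum lay between 42462 and 44070.0 normalised counts in adipocyte medium, between 88751 and 91889.6 in stromal medium and between 103409.9 and 115369.7 in unconditioned medium. The 10 of 22 B cell markers summed to 4256 to 5925, 11754 to 17661 and 11225 to 14525 in the same order of media. The 18 of 28 myeloid markers summed to 4269 to 4811 in adipocyte, 10355 to 16436 in stromal and 9748 to 14961 in unconditioned medium. No B cell or myeloid marker in the table was at 0 throughout a medium, and the lowest, the myeloid gene Clec4a3, reached 0.9 in adipocyte medium. The 6 of 13 neutrophil markers summed to between 276 and 968 in adipocyte, 1787 and 3238 in stromal and 1754 and 2605 in unconditioned medium. The 2 of 10 natural killer cell markers, Klre1 and Prf1, went otherwise, with sums between 1296 and 2750.2 in adipocyte, 756 and 889.7 in stromal and 2004 and 2089.6 in unconditioned medium. Of 8 adipocyte markers the table holds Lpl, at 0 to 12.7 normalised counts in adipocyte, 156 to 193 in stromal and 28.6 to 105 in unconditioned medium. Of 11 stromal markers it holds 0. The sums cover genes that moved apart. In adipocyte against unconditioned medium 16 myeloid markers were called lower and Ms4a6c higher, at a log2 fold change of 0.94. The 5 T cell and 10 B cell markers were all called lower. Among neutrophil markers 5 were called lower and Ngp higher, at 1.57. Klre1 was called higher, at 1.12, and Prf1 was not called, at -0.38. In stromal against unconditioned medium 2 T cell markers were called lower and Cd8a higher, at 0.30. There 2 myeloid markers were called higher, Cd14 at 1.99 and Ms4a6c at 0.58. Another 4 were called lower, most of all Adgre1 at -1.53, although the myeloid sums overlap. Prf1 was called lower, at -1.81, as was 1 neutrophil marker, Mmp9, at -1.33. No B cell marker was called in that comparison. The part of these cell types in the members' changes was not tested.

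In stromal medium the changes of the 7 genes were small and rested mainly on Junb. Junb averaged 30685 ± 4016 normalised counts in stromal medium against 19731 ± 99.3 in unconditioned medium (SD, n = 3 each). The log2 fold change was 0.63 (95% interval 0.34 to 0.92, limma adjusted p = 0.00147), or 1.55-fold. It stayed past the threshold in each of the 20 alternative settings, with a highest adjusted p of 0.0133. Jun was at 0.40 (0.06 to 0.75, limma adjusted p = 0.0454), and this call was lost in 8 settings that each left out samples of stromal or unconditioned medium (adjusted p 0.0662 to 0.195).

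Batf was at 0.26 in stromal over unconditioned medium (95% interval 0.03 to 0.48, limma adjusted p = 0.0528) and at an adjusted p of 0.0492 with the mouse as a block. Fos was at 0.22 (-0.21 to 0.65, limma adjusted p = 0.357), Maff at 0.10 (-0.18 to 0.38, adjusted p = 0.533) and Fosb at 0.09 (-0.38 to 0.56, adjusted p = 0.738). Fosl2 was at -0.27 (-0.73 to 0.19, limma adjusted p = 0.296), and at 0.087 under median of ratios scaling. These intervals leave room for changes of either sign in Fos, Fosb, Fosl2 and Maff.

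Of the 7 members 2 were therefore called higher and 0 lower in stromal against unconditioned medium. Among all tested genes 21.1% were called higher, 36.6% lower and 57.7% in either direction, and the count of 2 in 7 is near the share called higher. The number of members called was 1 to 4 with samples left out. Under median of ratios scaling it was 5, all higher, but there the background turned as well, with 1129 of 2871 tested genes called higher and 562 lower. Jun, Junb, Batf and Maff, 4 of the 7, had the 3 stromal values above the 3 unconditioned ones, as had 25.1% of tested genes. None of the 7 is in the authors' deposited table for stromal medium. The median of the members was 0.22 and that of all tested genes -0.17.

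The direct comparison of the conditioned media, which asks whether adipocyte medium differs from stromal medium, called 7 of 7 members higher in adipocyte medium. The background was 33.8% of tested genes higher, 57.2% lower and 91% in either direction. In all 7 the 3 adipocyte values were above the 3 stromal ones, as in 33.4% of tested genes. Fosl2 had the largest difference, in an interval that overlaps that of Jun, with 21814 ± 5726 normalised counts in adipocyte and 4112 ± 1234 in stromal medium (SD, n = 3 each), with a log2 fold change at 2.41 (limma, SE 0.21, adjusted p = 5.15e-07). Jun was at 2.14 (limma adjusted p = 1.62e-07), Junb and Fos at 1.73 each, Maff at 1.71 and Fosb at 1.60. Batf was the smallest again, at 1.36 (95% interval 1.14 to 1.59). The 3 comparisons share samples, so their values stand side by side and are not separate evidence.

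**Figure D2:**
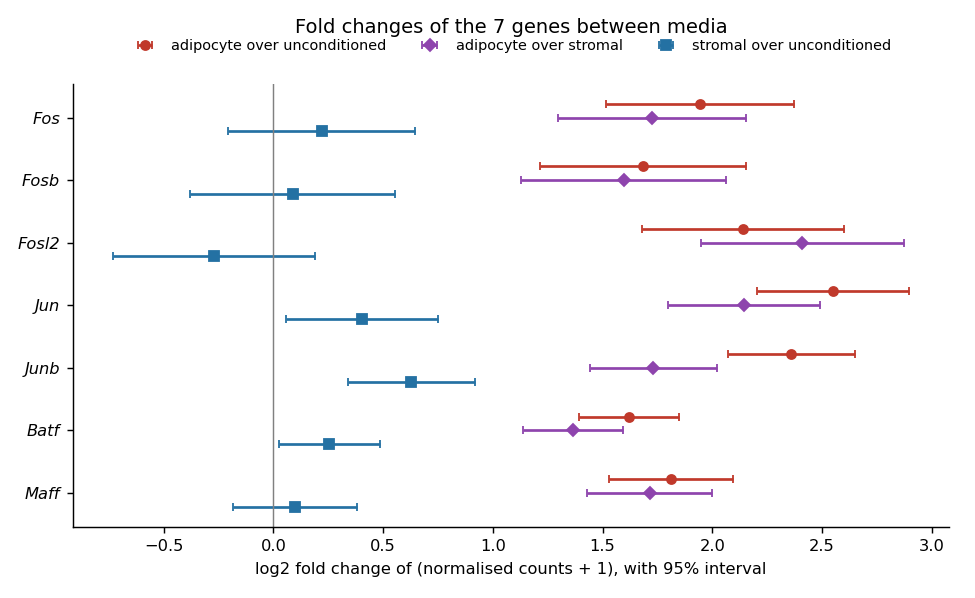
Log2 fold change of each gene (x axis, with 95% interval from limma, not adjusted for the number of genes) for adipocyte over unconditioned, adipocyte over stromal and stromal over unconditioned medium. Adipocyte intervals lie above 1 in both comparisons, and in stromal over unconditioned medium those of Fos, Fosb, Fosl2 and Maff cross 0.

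The same animals gave all media, so the change can be read within each mouse. For adipocyte minus unconditioned medium the log2 differences of mice 1, 2 and 3 were 1.99, 1.48 and 2.37 for Fos, 2.70, 2.04 and 2.91 for Jun, and 2.53, 2.04 and 2.51 for Junb. Batf gave 1.83, 1.32 and 1.71, and Fosl2 2.09, 1.72 and 2.61. Mouse 2 had the smallest difference for each of the 7 genes, and its adipocyte sample was the lowest of the 3 adipocyte samples for each of them. It was also the lowest for 64.8% of all genes called higher in adipocyte medium. The median difference over those genes was 1.28, 1.20 and 1.27 in the 3 mice. Without this adipocyte sample the 7 log2 fold changes ran from 1.73 for Batf to 2.79 for Jun, against 1.62 to 2.55 with it.

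Stromal medium showed a different pattern between mice. The stromal sample of mouse 2 was the highest of the 3 for Fos, Fosb, Fosl2, Junb and Maff, and that of mouse 3 was the lowest for all 7 members, against 46.4% of genes called higher in adipocyte medium. The stromal minus unconditioned differences of Fosl2 were -0.66, 0.24 and -0.39 in mice 1, 2 and 3, and those of Fosb -0.22, 0.64 and -0.16. For both genes mouse 2 had the opposite sign to the others. Without mouse 2 Fosl2 was called lower in stromal medium, at -0.53 (limma adjusted p = 0.0102). The other 5 genes were higher in every mouse, Junb by 0.53, 0.84 and 0.52, Jun by 0.48, 0.35 and 0.39 and Batf by 0.29, 0.17 and 0.31. For Fos the differences were 0.09, 0.49 and 0.08, and for Maff 0.08, 0.22 and 0.01.

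**Figure D3:**
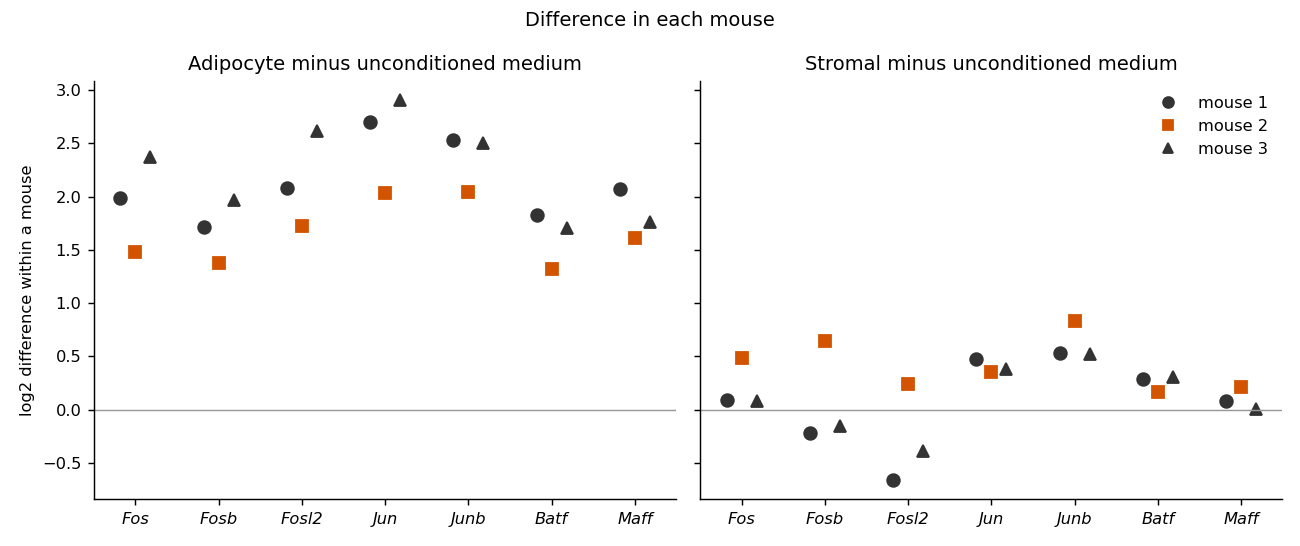
Log2 difference (y axis) of each gene within each mouse, for adipocyte minus unconditioned medium (left) and stromal minus unconditioned medium (right); each symbol is 1 mouse and mouse 2 is orange. On the left mouse 2 is lowest for each gene, and on the right it lies above 0 for Fosb (0.64) and Fosl2 (0.24) where the other mice lie below 0.

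The FOS and JUN genes varied more between adipocyte samples than most genes did. Their coefficients of variation there were 30.9% for Fos, 27.2% for Jun, 26.9% for Fosb and 26.2% for Fosl2. Junb, Maff and Batf followed at 17.8%, 19.4% and 15.5%. The median over all genes with a mean of at least 500 normalised counts was 9.44%. In unconditioned medium the members lay between 0.503% for Junb and 15.2% for Fosb, around a median of 5.4%. In stromal medium Batf and Maff were the steadiest, at 3.37% and 3.64%, and Fosl2 varied most, at 30%, around a median of 8.25%.

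Levels between genes were compared per kilobase of merged GENCODE M21 exons, an annotation that may differ from the authors'. Junb led in every sample, with 44551 ± 7950.1 normalised counts per kilobase in adipocyte medium, 13336 ± 1745 in stromal medium and 8575.0 ± 43.2 in unconditioned medium (SD, n = 3 each). Fos was next in each sample but overlapped with Jun in adipocyte medium, where they had 7465 ± 2303 and 5356 ± 1457. Fosl2, Maff and Fosb held the lowest places, in that order, in every sample. Fosb had 265 ± 71.1 normalised counts per kilobase in adipocyte, 86.6 ± 20.8 in stromal and 80.5 ± 12.2 in unconditioned medium.

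The order of Jun and Batf per kilobase turned with the medium. It rests on the exon lengths used, 3.189 kb for Jun and 1.406 kb for Batf. By normalised counts without that division Jun was above Batf in every sample. Batf was above Jun per kilobase in all 6 stromal and unconditioned samples, with 1378 ± 86.6 for Batf and 889.7 ± 23.5 for Jun in unconditioned medium. Jun was above Batf in all 3 adipocyte samples, though by little in mouse 2, at 3709 for Jun and 3638 for Batf. Ratios of 2 genes within a sample do not depend on how libraries are scaled. The log2 ratio of Jun to Batf normalised counts averaged 1.48 ± 0.30 in adipocyte, 0.70 ± 0.04 in stromal and 0.55 ± 0.06 in unconditioned medium (SD, n = 3 each), and no media overlapped.

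Other ratios moved as well. The log2 ratio of Jun to Fos averaged -0.03 ± 0.07 in adipocyte, -0.45 ± 0.18 in stromal and -0.63 ± 0.15 in unconditioned medium (SD, n = 3 each), and the adipocyte values stood apart. Batf to Junb was at -4.09 ± 0.13, -3.72 ± 0.19 and -3.35 ± 0.09 in the same order of media, with no overlap between any of them. Thus Batf was lower relative to Junb in both conditioned media. The log2 ratio of Fosl2 to Fos was 0.33 ± 0.09 in adipocyte medium, -0.35 ± 0.28 in stromal medium and 0.13 ± 0.07 in unconditioned medium, again without overlap, so stromal and adipocyte medium lay on opposite sides of unconditioned medium. These 3 ratios with Jun to Batf are 4 of 9 that were computed, and no test was made on them.

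The 7 genes together summed to 64878 ± 12922 normalised counts per kilobase in adipocyte medium, 19076 ± 2122 in stromal medium and 13503 ± 364 in unconditioned medium (SD, n = 3 each). Junb took 68.9% ± 1.82 of that sum in adipocyte medium, 69.8% ± 1.82 in stromal medium and 63.5% ± 1.44 in unconditioned medium. Its share was thus above the unconditioned range in both conditioned media. Batf took 6.64% ± 0.74 in adipocyte, 8.68% ± 0.93 in stromal and 10.2% ± 0.57 in unconditioned medium.

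**Figure D4:**
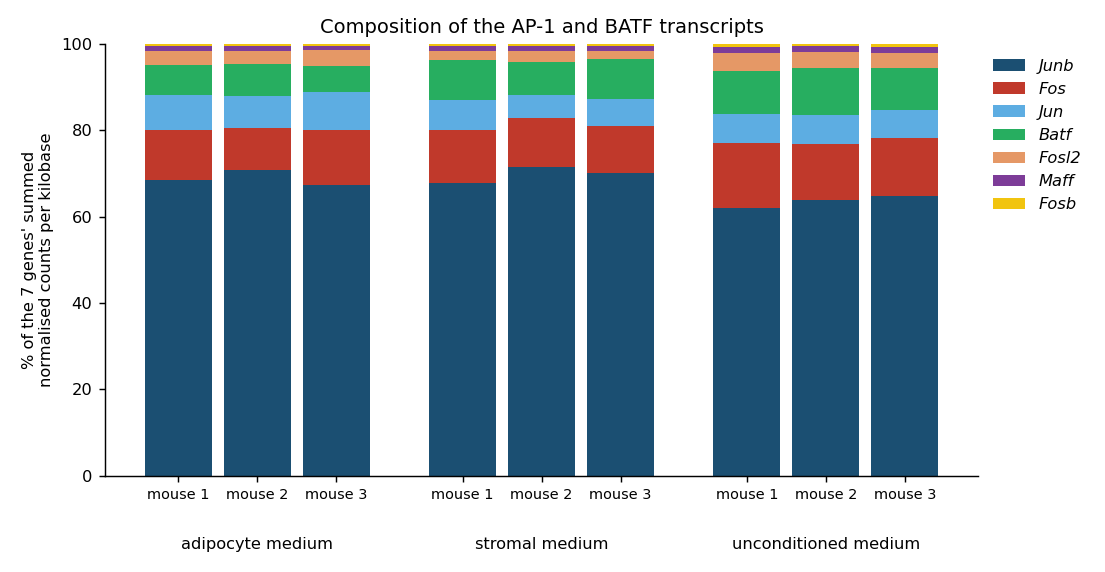
Percent of the summed normalised counts per kilobase of the 7 genes (y axis) taken by each gene in each of the 9 samples, adipocyte, stromal and unconditioned medium from left to right. Junb takes 61.9% to 71.4% in every sample, and the Batf part is narrowest in adipocyte medium at 6.64% on average.

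The genes whose pattern over the 9 samples was most like each member were taken as the 5 with the highest Pearson r of log2(value + 1) among 2797 named genes. The samples cluster by medium, and between 252 and 419 genes had an r above 0.95 with a given member, so a high r is common here. Fos and Fosb shared Dusp5 and Dusp1, which encode phosphatases of MAP kinases, and Eprs, a transfer RNA synthetase gene (r 0.99 to 1.00). Tnfrsf1a and Crbn completed the list of Fos, and Cipc and Fos itself that of Fosb. Fosl2 was closest to Il10, the gene of an anti-inflammatory cytokine (r = 0.996), then to Gpr132, Sik1, Ankrd50 and Ifngr2. Il10 was at 2.32 in adipocyte and -0.26 in stromal medium, against unconditioned medium on the log2 scale, beside 2.14 and -0.27 for Fosl2.

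Jun was closest to Ppp1r15a, which encodes a stress-induced phosphatase subunit (r = 0.998), followed by Siah2, Tamalin, Oser1 and Ppp2r2d. Junb was closest to Slc3a2, for a chain of amino acid transporters (r = 0.998), followed by Wdr26, Mark4, Dhx15 and Tbc1d15. Slc3a2 was at 2.56 and 0.74 in adipocyte and stromal medium against unconditioned medium, beside 2.36 and 0.63 for Junb. Batf was closest to the kinase gene Pim3 and the cytokine gene Il21 (r 0.998 and 0.997), then Mex3c, Yrdc and Mafk. Maff was closest to the ubiquitin ligase gene Arih1 (r = 0.998), then Ube2d3, Dhx40, Socs4 and Gch1.

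Other genes of the family and its surroundings were read from 5 lists, and each count is over the listed genes that are in the sample table. The table is a selection of changed genes, so the counts describe those genes and not whole pathways. Of 38 further basic leucine zipper genes, the class of proteins that FOS, JUN and BATF belong to, 13 were tested. In adipocyte medium 11 rose and 2 fell, and in stromal medium 10 rose and 0 fell (medians 1.61 and 0.73 against unconditioned medium). The stress factor genes Atf3 and Atf4 rose by 2.34 and 1.99 in adipocyte medium, and in stromal medium by 0.86 and 0.73. Crem, a gene of the cyclic AMP response, rose by 2.07 and 1.16, and Mafg, a small MAF gene like Maff, by 1.83 and 0.46. Mafa, a large MAF gene, rose by 1.87 and 1.23 at 74.7, 49.5 and 19.8 normalised counts on average in adipocyte, stromal and unconditioned medium. Creb5 was read in no unconditioned library and was at least 5.87-fold higher in adipocyte medium, against a floor of 3 reads per library. Dbp, a clock output gene, and Atf6b, an endoplasmic reticulum stress factor gene, fell by 1.29 and 0.93 in adipocyte medium, where 1 of the 13 genes was lower under median of ratios scaling.

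MAP kinase and serum response genes act upstream of FOS and JUN. Of 45 listed, 14 were tested, and in adipocyte medium 11 rose and 3 fell (median 1.00). In stromal medium 2 rose, 5 fell and 7 did not pass the test (median 0.01), and under median of ratios scaling 9 were higher and 1 lower. The 4 dual-specificity phosphatase genes with the largest changes rose in adipocyte medium, Dusp16 by 2.19, Dusp10 by 1.79, Dusp4 by 1.78 and Dusp5 by 1.74. Dusp16 was at -0.40 in stromal medium (limma adjusted p = 0.0403), whereas Dusp10 was at 0.82. Map2k6, a kinase gene of the p38 arm, fell by 1.95 in adipocyte medium and rose by 0.66 in stromal medium. Elk3, a partner gene of serum response factor, fell by 1.64 in adipocyte medium and by 0.37 in stromal medium.

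Factors that bind beside AP-1 or BATF gave 9 tested genes of 22 listed, and 8 rose in adipocyte medium. The largest were Stat5a and Stat3, which carry cytokine signals, both at 1.58, then Ets2 at 1.31, Nfkb1 at 1.27, Nfat5 at 1.14 and Rel at 1.14. In stromal medium 6 rose and 1 fell (medians 1.14 and 0.50 in adipocyte and stromal medium), and Ets2 was the gene that fell, by 0.45 (0 fell under median of ratios scaling). Irf8, whose product shares elements with BATF, was at 1.00 in adipocyte and 1.36 in stromal medium. Irf4 was not analysed here.

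Known targets of AP-1, NFAT or BATF in T cells gave 26 tested genes of 41 listed. In adipocyte medium 24 rose and 2 fell, with a median of 3.28, or 2.29 with the 3 genes unread in unconditioned medium set at their bound. Csf2, a myeloid growth factor gene, was at 5.73, Il17f at 5.54, Il4 at 5.14, Il21 at 4.97 and Il22 at 4.61. In unconditioned medium Csf2, Il17f and Il22 averaged only 4.25, 1.45 and 2.41 normalised counts, so the sizes of their changes are uncertain. Il4 and Il21 averaged 176 and 94.5 there. Il17a was read in no unconditioned library and was at least 23.1-fold higher in adipocyte medium, at 90.6, 28.8 and 102 normalised counts. In stromal medium 13 rose, 2 fell and 11 did not pass the test (median 0.56). Il22 rose there by 4.02, from the same low unconditioned values, and Il17a had 0, 1.98 and 0 normalised counts. The genes that fell in both conditioned media were Vim and Mmp9, and Mmp9 is also 1 of the 6 neutrophil markers above. Under median of ratios scaling 1 fell in adipocyte and 0 in stromal medium.

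Other immediate early genes gave 20 tested of 36 listed, and all 20 rose in adipocyte medium (median 1.67), a direction kept in each alternative setting including the rescaling. Nr4a3 and Nr4a2, orphan nuclear receptor genes, were at 2.51 and 2.21, Klf4 at 2.36, Csrnp1 at 2.24, Arc at 2.18 and Rgs1 at 2.17. In stromal medium 9 rose, 1 fell and 10 did not pass the test (median 0.19). Klf4 and Arc rose by 1.58 and 1.35, Rgs1 by 1.01 and Csrnp1 by 0.67. Nr4a3 was at -0.33 (limma adjusted p = 0.0871) and Nr4a2 at 0.15 (adjusted p = 0.348). Under median of ratios scaling 11 were higher and 0 lower in stromal medium.

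**Figure D5:**
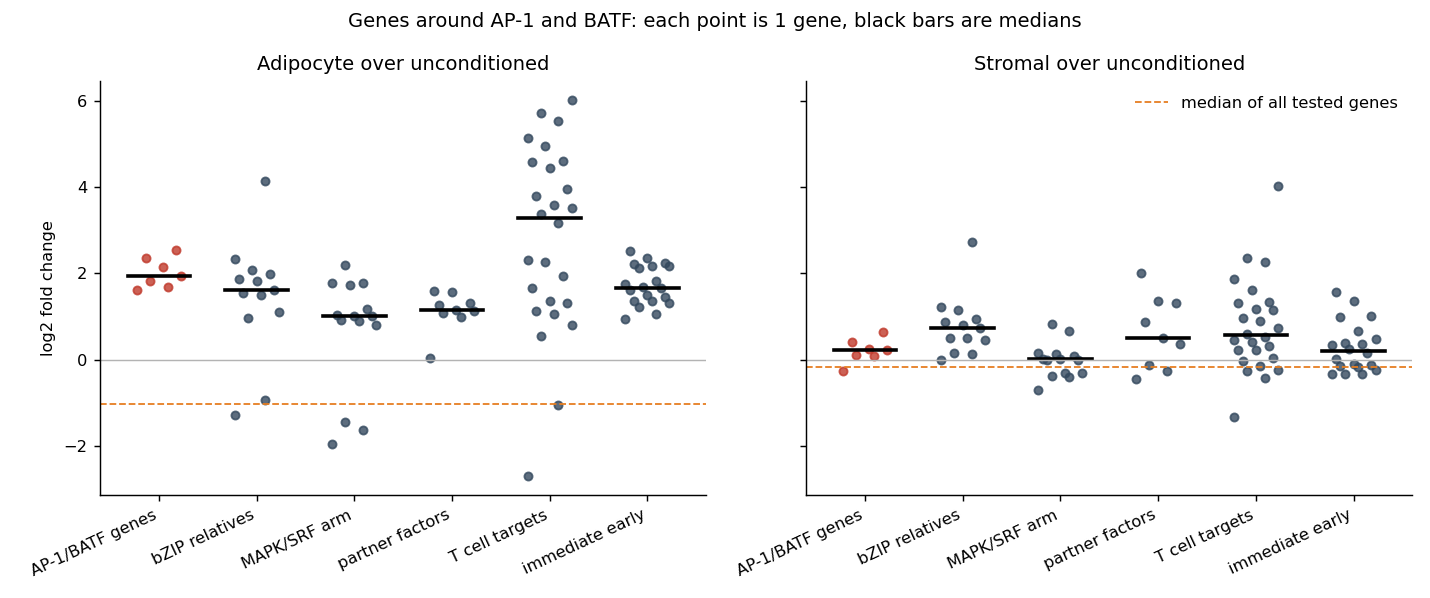
Log2 fold change (y axis) of every tested gene of the 7 AP-1 and BATF genes and of the 5 surrounding lists, for adipocyte (left) and stromal (right) over unconditioned medium; points are genes, black bars medians, and the dashed line is the median of all tested genes at -1.03 and -0.17. The members' median is 1.95 on the left and 0.22 on the right, and the T cell targets spread widest.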

How the data were processed

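RNA of 9 samples was sequenced, 3 mice in each of 3 media. Per the submitters' processing notes, FastQC, Trimmomatic, featureCounts and DESeq2 were used, and the builds GRCm39, GRCh38 and hg38 are named without a role. For the aligner, annotation and strand setting nothing is given in the sources used here. The deposited sample table holds a normalized signal per gene, counts divided by a size factor, and a cluster number (1 to 4) that is a label. In the authors' deposited tables each gene has a mean signal, a log2 fold change with SE, a Wald score and a p-value, per the file headers. All values (100%) are whole reads within 0.001 once divided by the sample's step. Reads on listed genes came to 6522742 to 13758643 per sample, and whole library depth is unknown.

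Values were taken as log2(value + 1) into limma-trend (limma 3.58.1, R 4.3.3) for the 2868 genes averaging at least 1, all 9 samples in 1 fit with medium as the factor. Two-sided p-values were adjusted by Benjamini-Hochberg, with a threshold of 0.05. The adjustment ran over these genes only, which the authors had selected as changed, so an adjusted p is not a rate over all expressed genes. This bears most on values near the threshold, such as those of Jun and Batf in stromal medium. Fold changes on this scale understate changes of low genes. The count test planned for raw counts was run on the recovered reads as an alternative, with edgeR 4.0.16 and DESeq2 1.42.0. No exact permutation test was made, since 3 against 3 allows no p below 0.1. The labels tie numbers to mice 1 to 3, so samples are paired (same-mouse correlation of deviations over genes -0.125 to 0.262). As a check for libraries deposited in duplicate, replicates were set against counting error alone (chi-square per degree of freedom 10.2 to 96.7), and none was counted as a duplicate. The script was tested on simulated data. The members and lists were chosen with earlier results of these data known. The named genes are all members, the 5 most alike genes of each, and up to 6 with the largest adipocyte change from each list. Dbp, Atf6b, Irf8, Vim and Mmp9 fall outside this rule and were chosen after their values were seen, as were the cell type markers given a log2 fold change. The 95% intervals are not adjusted for multiple genes. Promoter sequences are RefSeq's. The values of 1 gene on the list of partner factors are not reported here.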

Additional observations from a re-analysis of the deposited data

How the results depend on the processing

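All 7 members kept their direction and their call in adipocyte against unconditioned and in adipocyte against stromal medium under each of 20 alternative settings: the mouse as a block, added constants of 0.5 and 8, no filter and a mean of at least 50, median of ratios scaling, edgeR, DESeq2, and each sample or mouse left out. Leaving samples out moved Junb between 2.27 and 2.52, Jun between 2.37 and 2.81 and Batf between 1.51 and 1.77 in adipocyte against unconditioned medium. Stromal against unconditioned medium was less steady. The number of members called there was 2, and 1 to 4 when samples were left out. It was 4 without mouse 2 (Junb, Jun and Batf higher, Fosl2 lower) and 1, Junb, without mouse 1 or 3 or any 1 stromal or unconditioned sample. Fosb ranged from -0.19 to 0.24 across the left-out samples. With the mouse as a block Batf was added (adjusted p = 0.0492) and the calls of the other 6 members were as without it. Batf also passed without adipocyte replicate 1 or 2 (adjusted p = 0.0242 and 0.0194), and its range over all settings was 8.07e-04 to 0.223.

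Median of ratios scaling over the listed genes shifted the median log2 fold change of all tested genes by 0.93 in adipocyte and 0.36 in stromal against unconditioned medium and by 0.57 in adipocyte against stromal medium. Genes with low counts moved less on the log2(value + 1) scale. It called 5 members in stromal medium, adding Batf at 0.61, Fos at 0.58 and Maff at 0.46, and turned Fosl2 to 0.087 (adjusted p = 0.775). Over all tested genes the split in adipocyte against unconditioned medium was 1078 higher and 1047 lower, against 969 and 1818 as deposited. In stromal against unconditioned medium it was 1129 and 562, against 606 and 1049, and in adipocyte against stromal medium 1172 and 1091, against 968 and 1641. This scaling centres the selected genes by construction. Stromal list counts moved by over 1.5 times in 31 of 200 values, against 2 and 5 of 200 in the adipocyte comparisons with unconditioned and stromal medium. Depth of the whole libraries is unknown, so no limit for unlisted genes can be given.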
